A study of Homo sapiens with 6 samples.

Results

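The 78 genes described here carry the symbols given to mitochondrial ribosomal proteins. They are all gene symbols that start with MRPL or MRPS followed by a number and, in some, a letter A to C, out of 33514 symbols in the count tables. MRPL symbols (49 genes) were given to proteins of the large subunit and MRPS symbols (29 genes) to those of the small subunit. Structures since place MRPS18A and MRPS30 in the large subunit, MRPS36 is now assigned to another complex, and a few mitoribosomal proteins have other symbols. RNA was sequenced from PC3 cells, a human line of prostate cancer that was established from a metastasis in bone, grown in RPMI medium with fetal bovine serum. There were 3 groups of 2 libraries each: cells without treatment (control), cells after 2 h with 50 µM heme in the medium, and cells after 4 h with the same dose. All libraries come from the 1 cell line, no other agent is labelled, and the untreated group carries no time. The comparison asked here is how large and small subunit genes stood in control, 2 h and 4 h cells.

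Mitochondria keep their own ribosomes, which translate the few messenger RNAs of mitochondrial DNA into core subunits of the respiratory chain and of ATP synthase. The ribosomal RNAs of these particles are made inside the organelle, but every protein of them is encoded in the nucleus, translated in the cytosol and imported. The small subunit reads the messenger RNA and the large subunit joins amino acids and holds the exit tunnel. Some of the proteins have bacterial counterparts and carry their numbers, while others exist only in mitochondria. Heme, an iron porphyrin, is made partly in mitochondria and is a cofactor of respiratory chain proteins.

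Each library held between 53129375 and 55537611 reads counted to genes, of which the 78 genes took between 0.547% and 0.638%. All 78 genes passed the filter on low counts, among 16209 genes tested. Whether replicates were separate cultures is not labelled, so the p-values reflect only how much these libraries differed, which can be technical. Levels are given as CPM (read counts scaled to library size by TMM). Only the marker sums of this paragraph were scaled to total gene counts, without TMM. PC3 cells keep epithelial transcripts, and the 5 epithelial markers examined were present in every library, with a summed level between 2138 and 2493 CPM. The prostate luminal marker KLK3 had a count of 0 in all libraries. Summed markers of other cell types were higher in both 2 h libraries. Of 5 blood markers 1 had no count in any library, and their sum was 0.508 to 0.843 CPM in controls, 2.07 to 2.70 CPM at 2 h and 0.790 to 1.05 CPM at 4 h. The 4 fibroblast markers summed to between 25.7 and 28.8, 43.0 and 49.6, and 24.6 and 32.4 CPM in these groups. The 3 endothelial markers summed to between 19.7 and 19.97, 34.1 and 41.5, and 18.2 and 19.7 CPM. CD14 made up most of the blood sum (0.395 to 2.62 CPM over all libraries), and COL1A1 and PECAM1 made up most of the last 2 sums. The defining markers PTPRC and VWF had at most 5 and 7 counts in any library, and HBB had 0. The part of these markers in the results below was not tested.

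After 2 h with heme, transcripts of many mitochondrial ribosomal proteins were less abundant than in untreated cells. Of the 78 genes 33 fell, 1 rose (MRPL34) and 44 did not pass the test (edgeR quasi-likelihood test, Benjamini-Hochberg adjusted p under 0.05 over all genes). Thus 42.3% of the members were called lower, where 15.8% of all genes tested were called lower and 15.9% higher. The falls were modest in size. The members' log2 fold changes ran from -0.74 (MRPL1) to 0.37 (MRPL34), with a median of -0.29 against 0.02 over all genes, and 69 of 78 were below 0. Both 2 h libraries lay below both controls for 60 of 78 genes, against 33.2% of all genes tested. CPM values are shares of a library, and in bulk RNA fewer cells of a kind and less RNA per cell cannot be told apart. The count rested on both controls: 14 genes (17.9%) were called lower without control replicate 1 and 15 (19.2%) without control replicate 2, where 6.59% and 9.33% of all genes were. The members' median was log2 -0.29 and -0.31 in these fits. With no scaling factor 23 of the 78 genes were called in either direction (28.2% lower and 1.28% higher). Over all genes 11.2% were then lower and 18.8% higher. Of the calls over all genes 37.4% were lower in this fit, against 49.8% with TMM scaling.

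**Figure D1:**
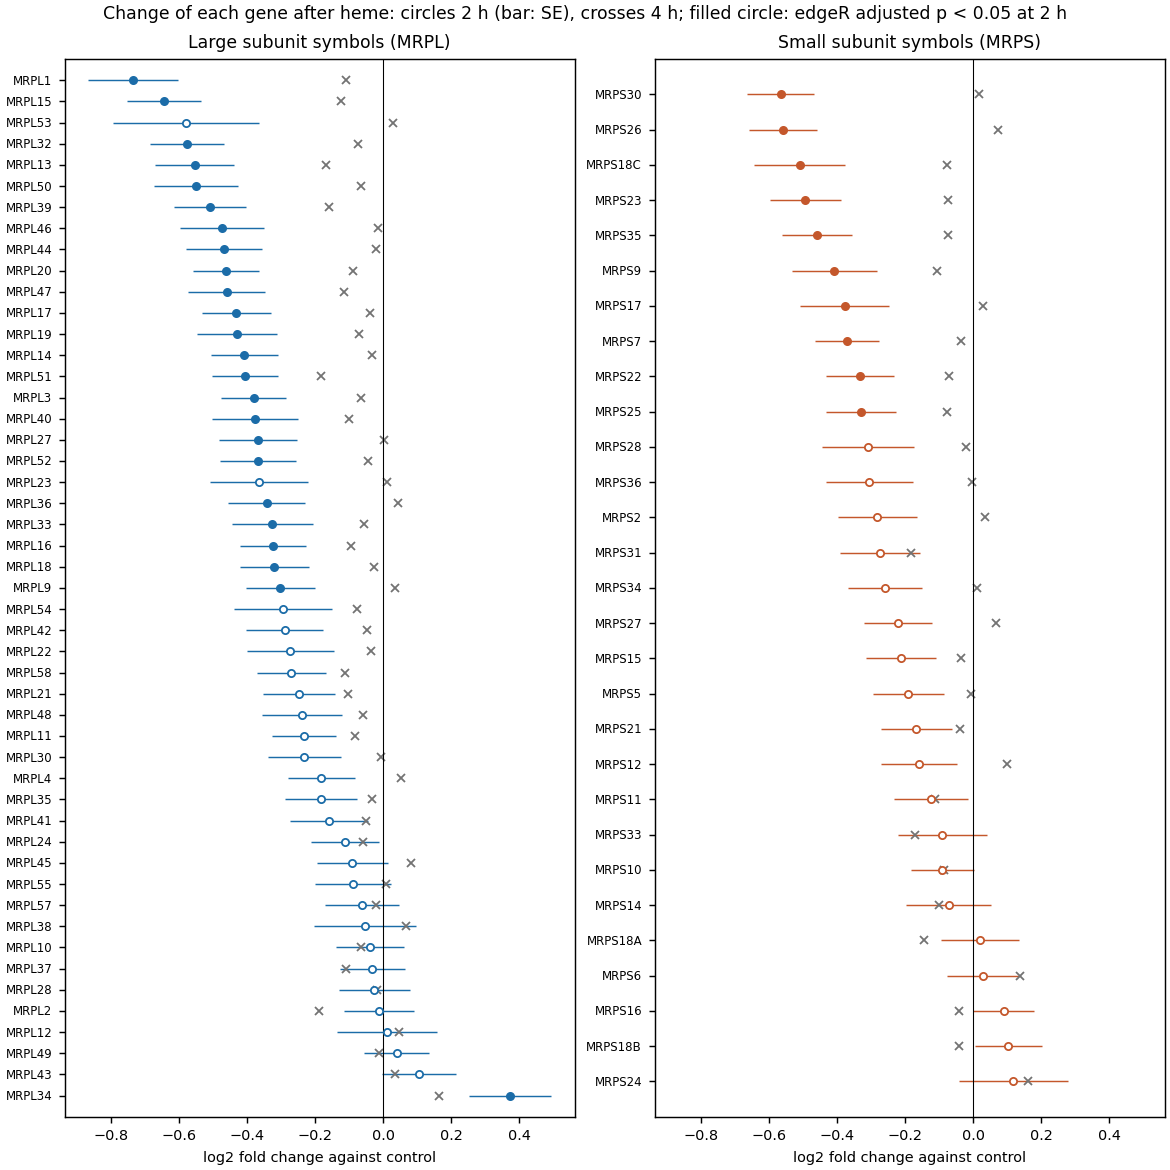
Log2 fold change of each of the 49 MRPL (left) and 29 MRPS genes (right) against control, with circles for 2 h (bars: SE) and crosses for 4 h. Filled circles mark edgeR adjusted p under 0.05 at 2 h. Most circles lie left of 0, down to -0.74 for MRPL1, while the crosses lie between -0.19 and 0.16.

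Among large subunit genes the 5 largest falls were those of MRPL1, MRPL15, MRPL32, MRPL13 and MRPL50. MRPL1 is the counterpart of bacterial L1, the protein of the mobile stalk beside the site where spent transfer RNA leaves. Its gene lies on chromosome 4 (GRCh38, 77862520 to 77952790, plus strand), and none of its exons overlaps those of another counted gene. MRPL1 stood at 50.6 and 45.3 CPM in the controls, at 26.1 and 31.5 CPM at 2 h and at 48.7 and 40.2 CPM at 4 h. The 2 h libraries were thus the lowest, and the 4 h libraries lay on both sides of the lower control. The fall at 2 h was log2 -0.74 (SE 0.13, edgeR adjusted p = 0.000942). MRPL15, whose bacterial counterpart L15 binds within the large ribosomal RNA, stood at 68.5 and 73.9 CPM in controls, 42.7 and 48.5 at 2 h and 67.2 and 63.5 at 4 h. Both 2 h libraries were below all others (log2 -0.64, SE 0.11, edgeR adjusted p = 0.000582).

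MRPL32, a small zinc-binding protein that is cut by the mitochondrial m-AAA protease before it joins the ribosome, stood at 77.1 and 76.4 CPM in controls. It was at 51.3 and 51.6 CPM at 2 h and at 79.0 and 66.7 CPM at 4 h. The replicates of the first 2 groups were close to each other, and their gap was log2 -0.58 (SE 0.11, edgeR adjusted p = 0.00123). MRPL13, a counterpart of bacterial L13, stood at 146 and 134 CPM in controls, 91.0 and 99.3 at 2 h and 139 and 110 at 4 h. Its 4 h libraries were far apart, 1 among the controls and 1 between the groups, and its fall at 2 h was log2 -0.55 (SE 0.12, edgeR adjusted p = 0.00252). MRPL50 has no bacterial counterpart. Its levels were 48.7 and 47.0 CPM in controls, 29.5 and 35.8 at 2 h and 48.8 and 42.7 at 4 h, a fall of log2 -0.55 at 2 h (SE 0.12, edgeR adjusted p = 0.00414).

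**Figure D2:**
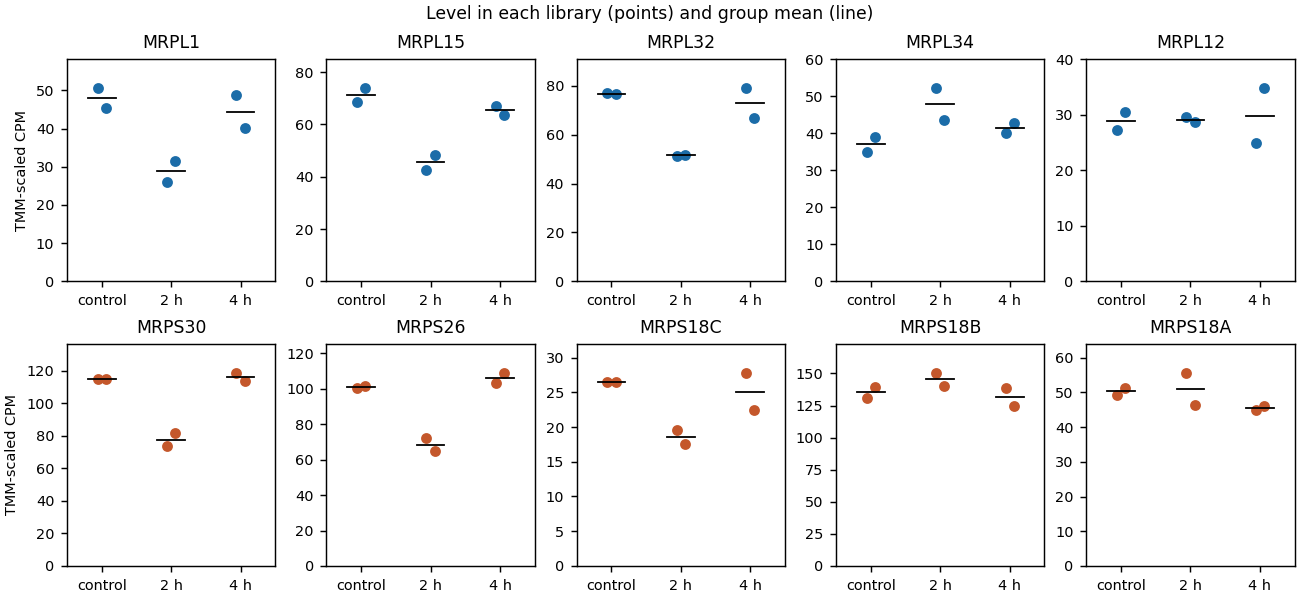
Level of 10 genes in each library in CPM (points; lines: group means), on axes from 0; blue genes carry MRPL symbols and orange genes MRPS symbols. MRPL1, MRPL15, MRPL32, MRPS30, MRPS26 and MRPS18C have both 2 h points below all other points, MRPL34 has both above, and MRPL12, MRPS18A and MRPS18B do not separate downward.

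The other 18 large subunit genes called lower were MRPL3, MRPL9, MRPL14, MRPL16, MRPL17, MRPL18, MRPL19, MRPL20, MRPL27, MRPL33, MRPL36, MRPL39, MRPL40, MRPL44, MRPL46, MRPL47, MRPL51 and MRPL52. Their log2 fold changes lay between -0.51 (MRPL39) and -0.30 (MRPL9). The 25 that passed in neither direction were MRPL2, MRPL4, MRPL10, MRPL11, MRPL12, MRPL21, MRPL22, MRPL23, MRPL24, MRPL28, MRPL30, MRPL35, MRPL37, MRPL38, MRPL41, MRPL42, MRPL43, MRPL45, MRPL48, MRPL49, MRPL53, MRPL54, MRPL55, MRPL57 and MRPL58. They ranged from -0.58 (MRPL53) to 0.11 (MRPL43). MRPL53 had few reads, with 3.34 and 3.52 CPM in controls and 2.57 and 2.01 CPM at 2 h, and did not pass (SE 0.21, edgeR adjusted p = 0.0519).

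MRPL34, the counterpart of the very small bacterial protein L34, was the 1 member called higher. It stood at 34.9 and 39.1 CPM in controls, 52.2 and 43.7 at 2 h and 40.1 and 42.9 at 4 h. Both 2 h libraries were above all others, with the first well above the second (log2 0.37, SE 0.12, edgeR adjusted p = 0.0294). The call was lost without control replicate 1, control replicate 2, 2 h replicate 1 or 4 h replicate 2 (edgeR adjusted p = 0.294, 0.0878, 0.173 and 0.0523). MRPL34 lies on chromosome 19 (GRCh38, 17292609 to 17306843, plus strand) and shares 223 exonic bases with ABHD8 on the opposite strand. ABHD8 itself rose at 2 h, from 18.7 and 19.9 to 43.6 and 33.5 CPM (log2 0.99, SE 0.15, edgeR adjusted p = 0.000209). Whether reads of ABHD8 were counted to MRPL34 was not tested, since the strand setting of the counting is not given in the sources used here.

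By place in the large subunit, the number of genes called differed. The flexible stalk that recruits translation factors is built on MRPL10 and MRPL11 and carries copies of MRPL12, and 0 of these 3 genes were called. MRPL12 had 27.2 and 30.6 CPM in controls and 29.5 and 28.7 CPM at 2 h, so the groups overlapped. MRPL10 overlapped as well (log2 -0.04, SE 0.10), and MRPL11 had log2 -0.23 (SE 0.09, edgeR adjusted p = 0.0687). The central protuberance, the crown of the large subunit that faces the small one, had 4 of 6 genes lower (66.7%, against 15.8% of all genes). MRPL46 (log2 -0.47, SE 0.12), MRPL40 (-0.38, SE 0.13), MRPL27 (-0.37, SE 0.11) and MRPL18 (-0.32, SE 0.10) fell, while MRPL48 (-0.24, SE 0.12) and MRPL38 (-0.05, SE 0.15) did not pass. Around the exit tunnel, through which the new protein leaves, 2 of 6 genes fell (33.3%). These were MRPL47 (log2 -0.46, SE 0.11), the counterpart of bacterial L29, and MRPL17 (-0.43, SE 0.10). MRPL23 (-0.37, SE 0.14), MRPL22 (-0.27, SE 0.13), MRPL24 (-0.11, SE 0.10) and MRPL45 (-0.09, SE 0.10), the protein that ties the tunnel exit to the inner membrane, did not pass. Of 28 MRPL genes numbered up to 36, which name bacterial counterparts, 15 were lower (53.6%). Of 21 with higher numbers, mostly mitochondria-specific, 8 were lower (38.1%). Differences between these places were not tested.

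Among small subunit genes MRPS30, MRPS26, MRPS18C, MRPS23 and MRPS35 had the largest falls at 2 h. MRPS30 carries a small subunit symbol, but structures of the human particle place it in the large subunit. Its gene lies on chromosome 5 (GRCh38, 44808925 to 44820428, plus strand). MRPS30 stood at 115 and 115 CPM in controls, 73.6 and 81.6 at 2 h and 119 and 114 at 4 h, so the 2 h libraries stood alone below the rest (log2 -0.57, SE 0.10, edgeR adjusted p = 0.000704). MRPS26, a mitochondria-specific protein encoded on chromosome 20 (GRCh38, 3045945 to 3048254, plus strand), stood at 100 and 101 CPM in controls, 72.2 and 64.8 at 2 h and 103 and 109 at 4 h. Its fall was log2 -0.56 (SE 0.10, edgeR adjusted p = 0.000888), and its 4 h libraries were the highest of the 6.

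MRPS23, another mitochondria-specific protein, stood at 113 and 112 CPM in controls, 82.7 and 77.2 at 2 h and 115 and 98.7 at 4 h (2 h log2 -0.49, SE 0.10, edgeR adjusted p = 0.00273). MRPS35 stood at 226 and 216, 152 and 170, and 225 and 195 CPM in the same groups (2 h log2 -0.46, SE 0.10, edgeR adjusted p = 0.00387). For both genes the 2 h libraries lay below the other 4. The other 5 small subunit genes called lower were MRPS7, MRPS9, MRPS17, MRPS22 and MRPS25, between log2 -0.41 (MRPS9) and -0.33 (MRPS25). The 19 that were not called were MRPS2, MRPS5, MRPS6, MRPS10, MRPS11, MRPS12, MRPS14, MRPS15, MRPS16, MRPS18A, MRPS18B, MRPS21, MRPS24, MRPS27, MRPS28, MRPS31, MRPS33, MRPS34 and MRPS36, from -0.31 (MRPS28) to 0.12 (MRPS24). MRPS36, whose product is now described as a part of the 2-oxoglutarate dehydrogenase complex, had log2 -0.30 (SE 0.13, edgeR adjusted p = 0.0796).

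The 3 paralogs of bacterial S18 differed among themselves. MRPS18C, which takes the place of bacterial S18 in the small subunit, stood at 26.5 and 26.4 CPM in controls, 19.6 and 17.6 at 2 h and 27.8 and 22.4 at 4 h. Its 2 h libraries were the lowest (log2 -0.51, SE 0.13, edgeR adjusted p = 0.0101). MRPS18B, also in the small subunit, had 131 and 140 CPM in controls and 151 and 140 CPM at 2 h (log2 0.10, SE 0.10). MRPS18A, which structures place in the large subunit, had 49.3 and 51.3 CPM and then 55.7 and 46.3 CPM (log2 0.02, SE 0.11), so its groups overlapped. MRPS18C shares 1956 exonic bases with ABRAXAS1 on the opposite strand, which was scarce and not called (log2 0.11, SE 0.16). Of the 5 genes of the decoding site and the head of the small subunit, MRPS9 (log2 -0.41, SE 0.12) and MRPS7 (-0.37, SE 0.09) fell (40% of the 5, against 15.8% of all genes). MRPS12, the counterpart of the decoding site protein S12, had log2 -0.16 (SE 0.11), MRPS10 -0.09 (SE 0.09) and MRPS14 -0.07 (SE 0.13). Of 16 MRPS genes numbered up to 21 there were 4 lower (25%), and of 13 with higher numbers 6 (46.2%).

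Sequences are shown for members with large falls, because 2 short motifs recur around the starts of the members. RefSeq windows (GRCh38.p14) from 250 bases before to 50 bases after the start were found for 69 of the 78 genes. The ETS motif CCGGAAG, the core bound by factors such as GABP, was present on either strand in 30 of 69 genes (43.5%), against 10.3% of all windows and 20.8% of tested genes with a window. The YY1 motif AAGATGGC was present in 21 (30.4%), against 2.89% and 6.01%, and in 5 of these it lay before the start. At least 1 of the motifs was held by 43 of 69 genes (62.3%), against 25.2% of tested genes. The sites of 3 genes are shown in the direction of the gene, 5′ to 3′, with 8 bases on each side of the match. Capitals mark the reverse complement of the ETS motif in MRPS26 and MRPS23 and of the NRF1 core in MRPL32, which begin 37, 14 and 39 bases before the RefSeq start. GENCODE 29 begins these genes further upstream, by 107, 12 and 176 bp.
MRPS26 (chr20:3046007-3046029, plus strand): ccgcgccgCTTCCGGggcacggt
MRPS23 (chr17:57850044-57850066, minus strand): agcagccgCTTCCGGttccggta
MRPL32 (chr7:42932329-42932352, plus strand): gtgcctgtGCGCATGCtgaaagca

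The YY1 motif is shown in the same way in 3 genes. In MRPL50 and MRPS30 it begins at base 24 and 14 of the RefSeq transcript. In MRPL32 it lies 222 bases before the RefSeq start, on the other strand.
MRPL50 (chr9:101398580-101398603, minus strand): tctcatcgAAGATGGCggcgcgat
MRPS30 (chr5:44808952-44808975, plus strand): cgcgggcaAAGATGGCggcggcca
MRPL32 (chr7:42932146-42932169, plus strand): cgcgctccGCCATCTTtacccgaa

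MRPL50 is also shown with the 100 bases before its RefSeq start, since both annotations place them outside the gene. They held none of the motifs searched. MRPL1, the gene with the largest fall, held none in its whole window.
MRPL50 (chr9:101398619-101398718, minus strand): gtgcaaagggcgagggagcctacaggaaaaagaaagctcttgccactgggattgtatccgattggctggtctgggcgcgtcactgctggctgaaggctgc

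Members called lower at 2 h and other members held ETS and YY1 in similar shares. ETS was in 14 of the 31 genes called lower that had a window (45.2%) and in 16 of the other 38 (42.1%), and YY1 in 10 (32.3%) and 11 (28.9%). The NRF1 core GCATGCGC was in 6 of 69 genes (8.70%, against 6.04% of tested genes) and the E-box CACGTG, bound by MYC with MAX, in 9 (13.0%, against 12.1%). A pattern of 4 runs of GGG with 1 to 7 bases between them, searched because the study concerns heme and G-quadruplex DNA, was in 12 of 69 members (17.4%). It was in 24.9% of all windows and 40.5% of tested genes. Of the members called lower 2 of 31 held it (6.45%), and of the others 10 of 38 (26.3%). Motifs searched on both strands can overlap each other, a match is a run of letters and not a measured site, and none of these shares was tested.

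Summed over genes, transcripts of both subunits were less abundant at 2 h. The 49 MRPL genes summed to 3914 and 3953 CPM in controls, 3307 and 3186 at 2 h and 3922 and 3619 at 4 h. The 29 MRPS genes summed to 2440 and 2497, 2176 and 2088, and 2481 and 2350 CPM. For both sums the 2 h libraries were the lowest, at 82.5% of the control mean for MRPL and 86.4% for MRPS. At 4 h the means were 95.9% and 97.8% of control, with the first 4 h library near the controls and the second below them. The ratio of the MRPL to the MRPS sum was 1.60 and 1.58 in controls, 1.52 and 1.53 at 2 h and 1.58 and 1.54 at 4 h. The ratio was thus lowest in both 2 h libraries, a few percent below the controls but close to the second 4 h library. This was not tested. The ratio does not depend on the scaling of libraries, since both sums share it. Of the MRPL genes 46.9% were called lower (median log2 -0.30) and of the MRPS genes 34.5% (median -0.26). With MRPS18A and MRPS30 counted to the large subunit and MRPS36 left out, 24 of 51 large and 9 of 26 small subunit genes were lower.

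**Figure D3:**
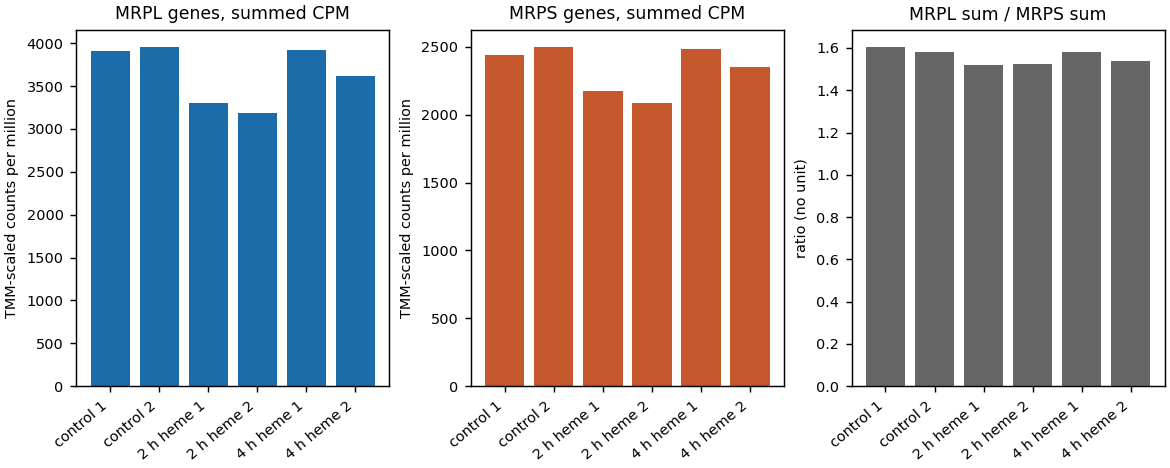
Summed level of the 49 MRPL genes (left) and 29 MRPS genes (middle) in each library in CPM, and the ratio of both sums (right), all on axes from 0. Both sums are lowest in the 2 h libraries, and the ratio lies between 1.52 and 1.60 in all 6 libraries.

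Members differed in how far they stood from control. Relative to the control mean, the median member stood at log2 -0.26 and -0.33 in the 2 h libraries, while single members ranged from well below to above the controls. Of the 78 genes 65 and 72 lay below their control mean in these libraries. The standard deviation of the members' log2 fold changes at 2 h was 0.21, against a median standard error of 0.11 per gene. Over all genes tested the standard deviation was 0.61.

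**Figure D4:**
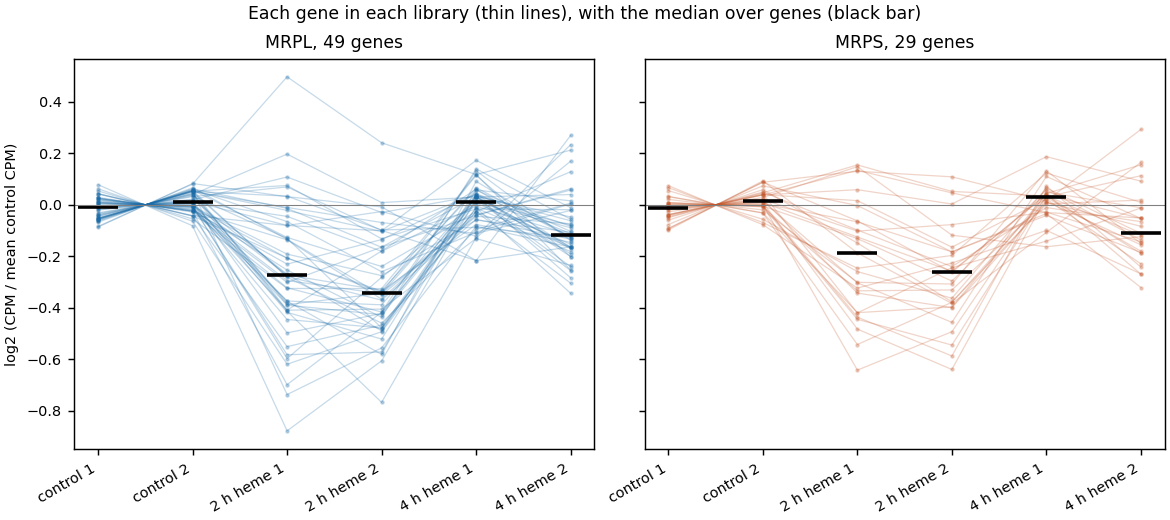
Level of each gene in each library as log2 of its CPM over the control mean, for 49 MRPL (left) and 29 MRPS genes (right); thin lines join 1 gene across libraries only to make it traceable, and black bars are medians. The medians lie at or below -0.19 in the 2 h libraries and between -0.12 and 0.03 in the others.

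After 4 h with heme the members were near their control levels. Of the 78 genes 0 were called against control in either direction by edgeR, 0 had an unadjusted p under 0.05, and DESeq2 called 0, with no adjusted p for 4 of them. Over all genes 0.0247% were called higher and 0.00617% lower, so few calls were made anywhere at this time. The members' log2 fold changes lay between -0.19 (MRPL2) and 0.16 (MRPL34), with a median of -0.04. The median was -0.05 for MRPL and -0.04 for MRPS genes. Both 4 h libraries lay below both controls for 13 of 78 genes (16.7%), close to the 17.4% of all genes. The 4 h libraries differed from each other: the median member stood at log2 0.02 in the first and -0.11 in the second. In the same cells HMOX1, the heme-degrading enzyme that heme induces, was still far above control at 4 h (log2 5.05, SE 0.15, edgeR adjusted p = 4.84e-11). A p above the threshold with 2 libraries a group does not show that the members were at control level.

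Directly between the treated groups, 28 of 78 members were higher at 4 h than at 2 h and 0 were lower. Over all genes 14.0% were called higher and 14.1% lower in this comparison. The share among members was 35.9%, with 20 of 49 MRPL (40.8%) and 8 of 29 MRPS genes (27.6%). Both 4 h libraries lay above both 2 h libraries for 53 of 78 genes, against 29.6% of all genes, and the members' median was log2 0.25. This comparison uses the same 2 h libraries as the one with control, so the rises are not independent of the falls. It also rested on 1 library: without 4 h replicate 1, which had the higher levels, 4 genes (5.13%) were called higher, against 6.91% of all genes. The members' median was then log2 0.18. With no scaling factor 16 genes were higher (20.5%) and with upper-quartile scaling 17 (21.8%), where 10.1% and 10.9% of all genes were. Of the calls over all genes 62.6% and 61.3% were lower in these fits, against 50.2% with TMM.

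The large subunit genes with the largest rises from 2 h to 4 h were MRPL1 (log2 0.62, SE 0.13), MRPL53 (0.61, SE 0.21), MRPL15 (0.52, SE 0.11), MRPL32 (0.50, SE 0.11) and MRPL50 (0.49, SE 0.12). MRPL53 went from 2.57 and 2.01 CPM at 2 h to 3.14 and 3.85 CPM at 4 h, close to its controls, and narrowly passed (edgeR adjusted p = 0.0466). The other MRPL genes called higher were MRPL3, MRPL9, MRPL13, MRPL14, MRPL17, MRPL18, MRPL19, MRPL20, MRPL27, MRPL36, MRPL39, MRPL44, MRPL46, MRPL47 and MRPL52. Among small subunit genes MRPS26 (log2 0.63, SE 0.10, edgeR adjusted p = 0.000368) and MRPS30 (0.58, SE 0.10, edgeR adjusted p = 0.000569) led. They were followed by MRPS18C (0.43, SE 0.13), MRPS23 (0.42, SE 0.10) and MRPS17 (0.41, SE 0.13), a counterpart of bacterial S17. MRPS17 stood at 18.7 and 19.1 CPM in controls, 15.3 and 13.8 at 2 h and 20.4 and 18.2 at 4 h. MRPS7, MRPS27 and MRPS35 were higher as well. MRPL34 had log2 -0.21 (SE 0.12, edgeR adjusted p = 0.213).

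Per kilobase of exon, the members' control levels spanned a wide range. MRPL39, a mitochondria-specific protein related to transfer RNA synthetases, was the highest, with 186 and 175 CPM per kilobase in controls, 124 and 131 at 2 h and 178 and 146 at 4 h. Its fall at 2 h was log2 -0.51 (SE 0.11, edgeR adjusted p = 0.00243). MRPS16, the counterpart of bacterial S16, followed with 112 and 118 CPM per kilobase in controls, 126 and 119 at 2 h and 113 and 111 at 4 h. The 2 h libraries of this abundant gene lay slightly above the controls, and it was not called (log2 0.09, SE 0.09). MRPS35 came next, at 114 and 109 CPM per kilobase in controls. The controls of MRPL39 were apart from those of the next 2 genes, whose own values interleaved. The lowest were MRPL53 (mean of the controls 2.55 CPM per kilobase), MRPS24 (2.82) and MRPL38 (3.03). All 3 share exonic bases on the same strand with another counted gene, respectively CCDC142 (608 bases), URGCP-MRPS24 (606) and AC087289.3 (1373), so their levels are uncertain.

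Exons of 36 of the 78 members overlap those of another counted gene, 13 on the same and 26 on the opposite strand. Among the 42 without such an overlap 20 were called lower at 2 h, where 15.8% of all genes tested were. The members are short genes, with a median exonic length of 2539 bp against 4459 bp over tested genes. Among the 3221 shortest genes tested (up to 2227 bp) the median log2 fold change at 2 h was 0.08 and 9.16% of genes were lower, while the 34 members among them had a median of -0.31. Among the next 3217 genes (2228 to 3674 bp) the median was 0.01 over all and -0.23 over 26 members.

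The members are spread over 21 chromosomes, with at most 8 on 1 chromosome (1, 2 and 17). Of the 78 genes 16 (20.5%) have a protein-coding neighbour that starts head to head within 1000 bp, against 8.80% of tested coding genes. Of these 16 neighbours 6 were lower at 2 h, 1 was higher and 9 were not called, where 15.8% of all genes tested were lower and 15.9% higher. The neighbours include the members MRPL46 (lower) and MRPS11 (not called). MRPL46 and MRPS11 are such neighbours of each other, 34 bp apart, and MRPL46 fell (log2 -0.47, SE 0.12) while MRPS11 did not pass (-0.12, SE 0.11). MRPL36 and NDUFS6, a complex I subunit, both fell (-0.34, SE 0.11 and -0.29, SE 0.11), as did MRPL18 and the chaperonin gene TCP1 (-0.32, SE 0.10 and -0.41, SE 0.10). By contrast MRPL57 did not pass (-0.06, SE 0.11) beside SKA3, which fell (-0.66, SE 0.13). These 4 pairs were chosen after their values were seen.

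Other genes of mitochondrial translation were examined from lists set by function. Of 5 mitoribosomal proteins with other symbols 0 were called at 2 h by edgeR, with 3 at an unadjusted p under 0.05. CHCHD1 (log2 -0.27, SE 0.11), DAP3, the GTP-binding protein of the small subunit (-0.24, SE 0.10), GADD45GIP1 (-0.22, SE 0.10) and PTCD3 (-0.15, SE 0.11) had the smallest p-values. Of 28 assembly factors of the mitochondrial ribosome 10 were lower (35.7%, against 15.8% of all genes). The 1 called higher (3.57%, against 15.9%) was the pseudouridine synthase RPUSD3 (log2 0.38, SE 0.11). MTERF3, which acts in mitochondrial transcription and large subunit assembly, went from 110 and 105 CPM in controls to 54.2 and 64.7 at 2 h and 109 and 96.7 at 4 h (2 h log2 -0.86, SE 0.11, edgeR adjusted p = 8.42e-05). This fall was larger than that of any member. FASTKD2, an RNA-binding protein needed for large subunit assembly (-0.70, SE 0.12), the pseudouridine synthase RPUSD4 (-0.62, SE 0.09) and the ribosomal RNA methyltransferase MRM2 (-0.55, SE 0.10) fell as well. From 2 h to 4 h 9 of the 28 were higher and 1 was lower (32.1% and 3.57%, against 14.0% and 14.1% of all genes).

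Of 15 genes listed as translation factors or related proteins, such as LETM1, 5 were lower at 2 h (33.3%, against 15.8% of all genes) and 0 higher. They were C12orf65, a release factor relative that rescues stalled ribosomes (log2 -0.78, SE 0.13), the elongation factor GFM1 (-0.63, SE 0.12), MTFMT, which formylates the initiator transfer RNA (-0.42, SE 0.12), the release factor MTRF1L (-0.33, SE 0.12) and LETM1 (-0.29, SE 0.10). The elongation factor TUFM had log2 0.03 (SE 0.10). Of 13 tested genes of mitochondrial transcription and its nuclear regulators 7 were lower and 1, MYC, was higher. These are 53.8% and 7.69%, against 15.8% and 15.9% of all genes. PPARGC1B, a coactivator of nuclear genes for mitochondria, went from 54.8 and 54.3 CPM to 6.84 and 9.81 CPM at 2 h and was at 57.6 and 63.3 CPM at 4 h (2 h log2 -2.71, SE 0.15, edgeR adjusted p = 7.50e-08). TFB2M (-0.85, SE 0.11), MTERF1 (-0.76, SE 0.14), TFAM (-0.61, SE 0.13), TEFM (-0.54, SE 0.14), NRF1 (-0.41, SE 0.12) and GABPB1 (-0.39, SE 0.11) fell, while GABPA (-0.14, SE 0.13) and YY1 (-0.10, SE 0.09) did not pass. MYC stood at 529 and 510 CPM in controls, 1247 and 1080 at 2 h and 544 and 553 at 4 h (2 h log2 1.16, SE 0.09).

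Few of the messenger RNAs that these ribosomes translate were called. Of 13 mitochondrial messenger RNAs 1 was lower at 2 h (7.69%, against 15.8% of all genes), MT-CO2 (log2 -0.25, SE 0.09, edgeR adjusted p = 0.0387). From 2 h to 4 h 0 were called, with 0 at an unadjusted p under 0.05. Their median at 2 h was log2 -0.12, and 12 were below 0. Both 2 h libraries lay below both controls for 84.6% of them, against 33.2% of all genes. At 4 h against control 0 were called, while all 13 were below 0 (median log2 -0.15). Both 4 h libraries lay below both controls for 53.8%, against 17.4% of all genes. Of 86 tested cytosolic ribosomal protein genes 15 were lower and 0 higher (17.4%, close to the 15.8% of all genes, median -0.21), led by RPL22L1 (-0.89, SE 0.13). Of 75 nuclear-encoded genes of oxidative phosphorylation 22 were lower and 0 higher (29.3%, median -0.20), led by NDUFB3 (-0.64, SE 0.12). Below 0 at 2 h were 82 of the 86 and 63 of the 75 genes. Both 2 h libraries lay below both controls for 61.6% and 70.7% of them, against 33.2% of all genes. At 4 h against control 0 of either list were called. Both 4 h libraries lay below both controls for 3.49% and 46.7%, against 17.4% of all genes. From 2 h to 4 h 6 genes of each of the last 2 lists were higher (6.98% and 8%, against 14.0% of all genes). Of the mitochondrial ribosomal protein genes 42.3% were called lower at 2 h, and 76.9% had both 2 h libraries below both controls. The difference between lists was not tested.

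**Figure D5:**
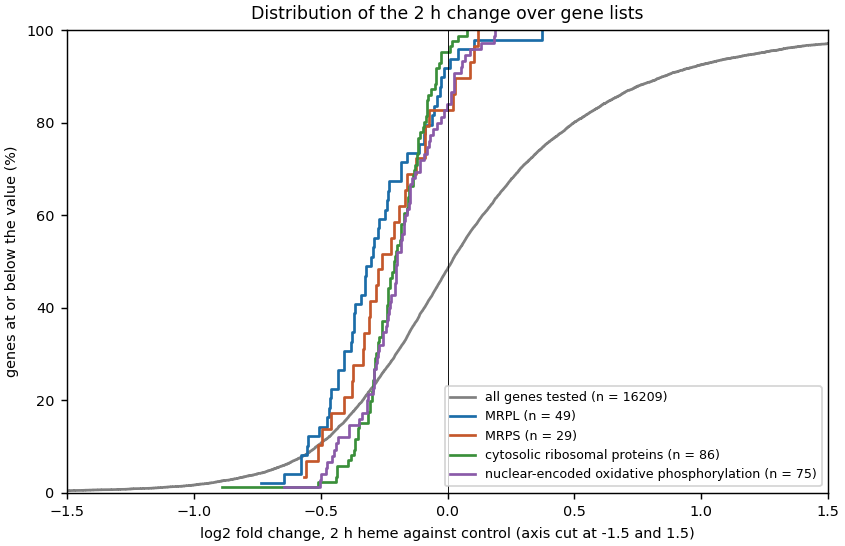
Share of genes (vertical axis, %) at or below each log2 fold change at 2 h against control (horizontal axis, shown from -1.5 to 1.5) for all 16209 genes tested, MRPL, MRPS, cytosolic ribosomal proteins and nuclear-encoded oxidative phosphorylation. The MRPL curve lies left of the other 3 lists over most of its range (median -0.30), all 4 lists lie below 0 at their medians, and the curve of all genes crosses 50% near 0.02.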

How the data were processed

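The authors deposited unnormalized counts of reads for each gene symbol, with 1 HTSeq-style table for every library. The tools STAR, Trimmomatic, deepTools and SAMtools and the build hg38 are named in the submitters' processing notes; no version, annotation release or strand setting is given in the sources used here. Total RNA came from Trizol extraction and libraries from a TruSeq kit, per the labels' protocols. The 5 summary lines were left out; reads outside genes made up 5.48% to 6.88% and ambiguous reads 4.23% to 4.48% of a library. Genes were tested with edgeR 4.0.16 in R 4.3.3: TMM, filterByExpr (minimum count 10), quasi-likelihood test, 1 fit over all 6 libraries, which leaves 3 residual degrees of freedom, two-sided, Benjamini-Hochberg adjustment over all genes, threshold 0.05. The test was checked on simulated counts. DESeq2 1.42.0 was an alternative. Coordinates and exonic lengths come from GENCODE 29 (GRCh38), upstream windows from RefSeq (GRCh38.p14). No replicate pair was close enough to be 1 library (chi-square of 9.11 to 34.2 per gene). Members and lists were chosen with earlier results of these data known. Genes named were, per comparison and subunit, the 5 largest called changes in each direction among genes whose libraries did not overlap and whose mean reached 2 CPM, the structural groups, the 3 highest and 3 lowest per length, and 4 genes per list by p; others are named to account for all members or were chosen after their values were seen. Alternatives were other scalings, DESeq2, no filter, a replicate block, only the groups compared, a length correction and leaving out each library.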

Additional observations from a re-analysis of the deposited data

Results flagged for a closer look

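The 2 h and 4 h effects against control differed, by the direct test of 4 h against 2 h (edgeR, adjusted over all genes), for 20 MRPL and 8 MRPS genes. The largest of these differences were log2 0.62 for MRPL1, 0.61 for MRPL53, 0.52 for MRPL15, 0.50 for MRPL32 and 0.49 for MRPL50 in the large subunit. In the small subunit they were 0.63 for MRPS26, 0.58 for MRPS30, 0.43 for MRPS18C, 0.42 for MRPS23 and 0.41 for MRPS17.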

How the results depend on the processing

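The 4 h count against control was 0 under every alternative run. At 2 h 34 members were called in either direction. With all libraries kept the number lay between 23 (no scaling factor) and 42 (length trend removed). In these fits 28.2% and 52.6% of the members were lower, against 11.2% and 17.6% of all genes. MRPL genes called lower fell from 23 to 15 with no scaling factor. Leaving out 1 library at a time gave 14 to 37 genes lower (MRPL 10 to 26, MRPS 4 to 11) and 0 or 1 higher, while 6.59% to 20.2% of all genes were lower and the members' median lay between log2 -0.34 and -0.28. From 2 h to 4 h, the 28 genes higher became 16 with no scaling factor and 17 with upper-quartile scaling (MRPL 11 in both, MRPS 5 with no scaling factor). Over all genes 10.1% and 10.9% were then higher. MRPS genes numbered 13 with DESeq2 and 13 with the length trend removed, where 16.6% and 16.1% of all genes were higher. Leaving out 1 library at a time gave 4 to 30 (MRPL 1 to 20, MRPS 3 to 11), with 6.91% to 19.1% of all genes higher and a members' median of log2 0.18 to 0.30. No direction of a named gene that was called turned. The ratio of the subunit sums with genes placed by structure was 1.80, 1.70 and 1.77 in control, 2 h and 4 h. With the replicate number as a block, 31 genes were lower and 1 higher at 2 h (39.7% and 1.28%, against 14.6% and 15.1% of all genes). From 2 h to 4 h 24 were higher with this block (30.8%, against 12.7% of all genes). The numbers were not taken as pairs, since the labels do not say that they mark a shared culture, batch or day. Same-numbered libraries did not deviate together (correlations -0.09, 0.07 and -0.02). The causes of these shifts were not tested. With 2 libraries a group and 3 residual degrees of freedom, small changes such as those of single members at 4 h cannot be told from the spread.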
